A study of Mus musculus with 8 samples.

Results

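The genes described here are 10 C-type lectin receptors of myeloid cells, found by gene symbol among the 53247 genes of the expression table: Clec4a1, Clec4a2, Clec4a3, Clec4d, Clec4e, Clec4n, Clec5a, Clec7a, Clec10a and Clec12a. All 10 were in the table and all 10 were expressed highly enough to be tested. Their transcripts were measured by RNA-Seq in tumor-associated macrophages (TAMs) from WT mice and from miR-21-/- mice, which lack the microRNA miR-21 in every cell, as a germline deletion. Both genotypes were of strain C57/BL6, carried subcutaneous LLC tumors (Lewis lung carcinoma, a mouse lung cancer line) and were 10 weeks old when the tumors were taken 14 days after implantation. The sort took cells positive for CD45, CD11b, MHCII and F4/80, and each genotype has 4 biological replicates. The label of miR-21-/- sample 1 carries a pair of animal-like numbers, whether as a pool is not stated, and was taken as 1 replicate.

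C-type lectin receptors are surface proteins with which macrophages, dendritic cells and neutrophils recognise sugars, lipids and products of dead cells. The activating ones signal through the kinase Syk, either by a motif in their own tail (dectin-1) or by a partner chain such as Fcer1g (Mincle, MCL, dectin-2) or Tyrobp, also named DAP12 (MDL-1), and Syk then acts through Card9, Bcl10 and Malt1 on NF-κB. The inhibitory ones, such as DCIR and MICL, carry an ITIM that recruits the phosphatases Ptpn6 and Ptpn11. In macrophages, receptors of the galactose type such as Clec10a (MGL1) are commonly used as marks of alternative activation.

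Values are in CPM (counts per 1000000 reads), and a fold change is miR-21-/- minus WT on the log2(CPM + 1) scale, fitted with limma over the 13850 genes that passed a filter on low values. Adjusted p-values are Benjamini-Hochberg values of limma over all those genes. The threshold was an adjusted p of 0.005 or less together with a more than 1.5-fold change. Samples are numbered 1 to 4 in each genotype. A p-value sets the genotype difference against the spread between these samples, which limma draws toward that of genes of similar level. In a bulk sample, fewer cells of a type and less RNA per cell cannot be told apart.

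In units of 1000000 reads, depth lay between 20.2 and 33.4 per sample, so that the lowest of the 80 member values still rested on 342 reads. Mir21a was listed at 0 in all 8 samples, so that the deletion could not be checked on it in these mRNA libraries. The 14 macrophage markers were all expressed, with summed levels of 21967 to 25092 CPM in WT and 22177 to 26143 CPM in miR-21-/- samples. Single markers differed within that sum: Fcgr1, an Fc receptor, passed the threshold in the higher direction at 0.75, while Adgre1, which encodes the sort marker F4/80, and Csf1r were at -0.38 (limma adjusted p = 0.00140) and -0.48 (limma adjusted p = 0.00538), both without overlap. Among the WT samples, WT sample 4 stood apart, being the highest or the lowest of the 4 for 9 of the 10 receptors. Where leaving it out changed a call or moved a receptor's value by over 1.5 times, that value is given too.

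The activating receptors dectin-1 and MCL were expressed at more than double the level in TAMs without miR-21, while the DCIR-related receptor Clec4a3 was expressed at a lower level. Of the 10 receptors, Clec7a and Clec4d passed the threshold in the higher direction, in which 2.89% of all tested genes passed it, and Clec4a3 passed it in the lower direction, in which 4.23% did. Without the fold limit, 8 of 10 receptors had an adjusted p at or under 0.05, against 36.0% of all tested genes. The samples of the genotypes did not overlap for 7 of 10 receptors, 5 higher and 2 lower, against 35.1% of all tested genes. The median log2 fold change of the 10 receptors was 0.38, and that of all tested genes was -0.10. The summed level of the 10 receptors lay between 1599 and 1789 CPM in WT and between 1901 and 2150 CPM in miR-21-/- samples.

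**Figure D1:**
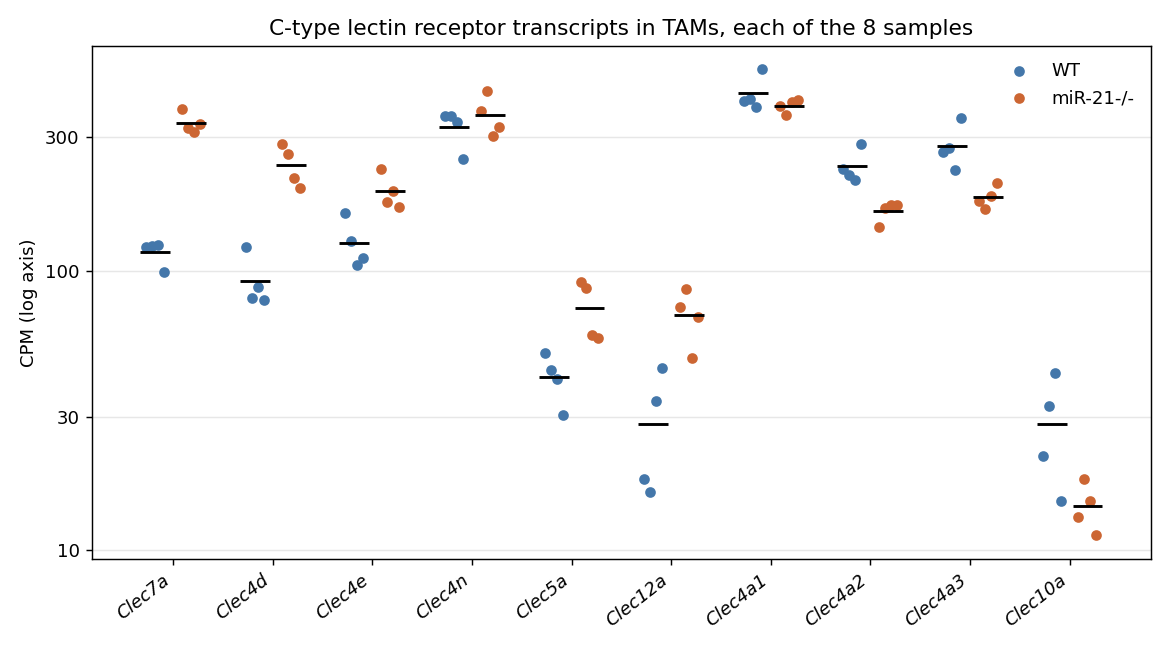
Level of each of the 10 receptors (CPM, log axis) in every sample, with 4 WT and 4 miR-21-/- samples as points and the mean of each genotype as a line. The points of the genotypes are apart for Clec7a, Clec4d, Clec12a, Clec5a and Clec4e, which are higher in miR-21-/- TAMs, and for Clec4a2 and Clec4a3, which are lower, and they overlap for Clec4n, Clec4a1 and Clec10a.

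Clec7a encodes dectin-1, the receptor of macrophages for fungal β-glucans, which signals to Syk by itself. The gene lies at chr6:129461591-129472779 on the minus strand (GRCm38), where the annotation gives it the biotype polymorphic pseudogene. Clec7a was at 121, 122, 124 and 99.2 CPM in WT samples 1 to 4 and at 378, 325, 312 and 335 CPM in miR-21-/- samples 1 to 4. Every miR-21-/- sample was therefore above every WT sample. The mean was 117 ± 11.7 CPM (SD, n = 4) in WT and 337 ± 28.4 CPM (SD, n = 4) in miR-21-/- TAMs, a 2.89-fold difference of the means with a log2 fold change of 1.53 (SE 0.085, 95% interval 1.34 to 1.72, limma adjusted p = 3.02e-06). Clec7a passed the threshold under each of the 9 alternative settings that keep that threshold and when each of the 8 samples was left out in turn, at 1.45 without WT sample 4.

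Clec4d encodes MCL, a receptor for mycobacterial glycolipid that pairs with Mincle and Fcer1g, and lies at chr6:123262111-123275265 on the plus strand. Clec4d was at 121, 79.8, 87.2 and 78.3 CPM in WT and at 283, 262, 214 and 197 CPM in miR-21-/- samples. The genotypes did not overlap, and sample 1 was the highest of each. The mean rose from 91.6 ± 20.0 to 239 ± 40.0 CPM (SD, n = 4 each), with a log2 fold change of 1.38 (SE 0.15, limma adjusted p = 0.000167). It, too, passed the threshold under each of those 9 settings and without any 1 of the 8 samples.

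Clec4e encodes Mincle, the receptor for mycobacterial cord factor and for a protein that dying cells release, and is the next gene beside Clec4d in the same cluster (chr6:123281789-123289870, minus strand). Clec4e was at 161, 128, 105 and 111 CPM in WT and at 231, 175, 193 and 169 CPM in miR-21-/- samples. The lowest miR-21-/- value was above the highest WT value by a small margin. Its log2 fold change was 0.62 (SE 0.14, 95% interval 0.31 to 0.92, limma adjusted p = 0.00674), which did not pass the threshold, and without WT sample 1 it was 0.74 with an adjusted p of 0.00170, which did. With median-of-ratios scaling it passed as well, at 0.73 (adjusted p = 0.00496).

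Clec5a encodes MDL-1, a receptor for dengue virus that signals through Tyrobp, and stands alone at chr6:40574894-40585821 on the minus strand. Clec5a was at 50.8, 43.9, 41.0 and 30.5 CPM in WT and at 91.2, 86.4, 58.9 and 57.3 CPM in miR-21-/- samples. The genotypes did not overlap, but the miR-21-/- samples fell into a higher and a lower pair. The log2 fold change was 0.80 (SE 0.18, 95% interval 0.39 to 1.20) with a limma adjusted p of 0.00781, short of the threshold.

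Clec4n encodes dectin-2, a receptor for fungal mannans that also depends on Fcer1g, and lies beside Clec4d (chr6:123229843-123247021, plus strand). Clec4n was at 358, 357, 340 and 251 CPM in WT and at 373, 440, 302 and 328 CPM in miR-21-/- samples. The genotypes overlapped, and WT sample 4 was well below the other WT samples. The fitted log2 fold change was 0.14 (SE 0.14, limma adjusted p = 0.447), with a 95% interval of -0.16 to 0.45, and the change lay between 0.022 (without WT sample 4) and 0.22 (without miR-21-/- sample 3) when 1 sample was left out, with 0.043 without miR-21-/- sample 2.

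**Figure D2:**
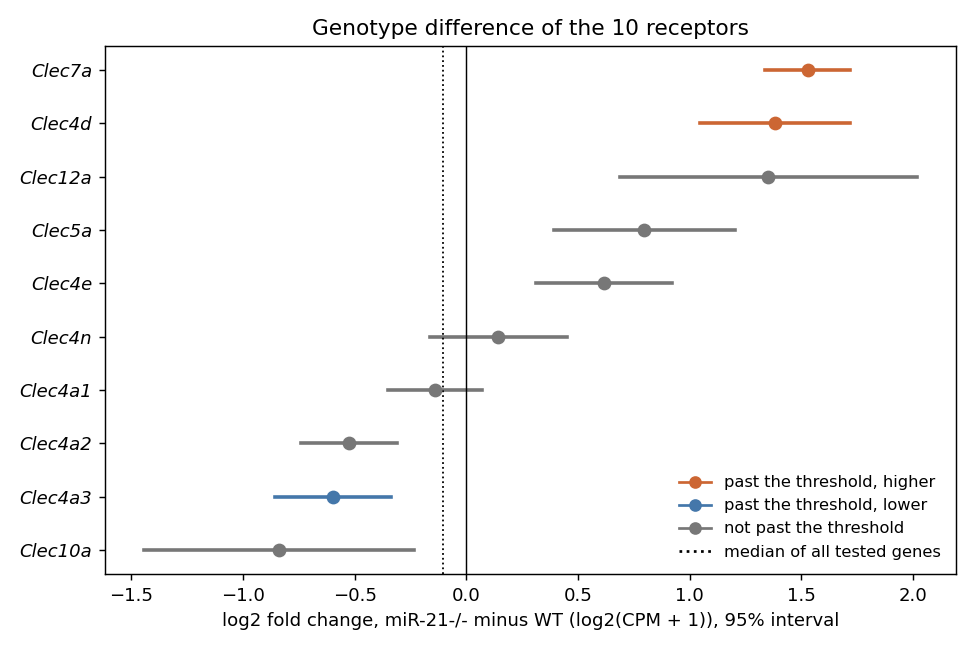
Log2 fold change (miR-21-/- minus WT) of each receptor as a point with its 95% confidence interval as a bar, colored where the threshold was passed, over 4 samples per genotype. Clec7a at 1.53 and Clec4d at 1.38 passed it in the higher direction, Clec4a3 at -0.60 passed it in the lower direction, and the intervals of Clec4n and Clec4a1 include 0.

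The ratio of receptors within a sample does not depend on a scaling factor per sample. The ratio of Clec4d to its partner Clec4e was 0.730 ± 0.0873 in WT and 1.25 ± 0.169 in miR-21-/- samples (SD, n = 4 each), ranging from 0.625 to 0.833 and from 1.11 to 1.49. These ratios are of CPM, not divided by exon length, and serve to compare samples, not the levels of the receptors. The ratio of Clec7a to Clec4n was 0.360 ± 0.0261 in WT and 0.951 ± 0.142 in miR-21-/- samples, and that of Clec4d to Clec4a3 was 0.337 ± 0.101 and 1.32 ± 0.317. The genotypes overlapped in the ratio of Clec7a to Clec12a, at 5.03 ± 2.53 and 5.06 ± 1.08, and in that of Clec10a to Mgl2, at 1.54 ± 0.953 and 2.51 ± 0.359.

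Among the receptors with an ITIM, Clec12a was higher and Clec4a2 lower in miR-21-/- TAMs, neither past the threshold. Clec12a encodes MICL, an inhibitory receptor for uric acid crystals of dead cells (chr6:129342691-129365303, plus strand). Clec12a was at 18.0, 16.2, 34.1 and 45.0 CPM in WT and at 73.9, 86.1, 48.6 and 68.0 CPM in miR-21-/- samples. The WT samples differed among themselves by more than double, and the genotypes came close to each other at WT sample 4 and miR-21-/- sample 3. The log2 fold change was 1.35 (SE 0.30, 95% interval 0.69 to 2.02, limma adjusted p = 0.00661). Without WT sample 4 it was 1.61 with an adjusted p of 0.00147, past the threshold, as it was with sample weights (1.46, adjusted p = 0.00295).

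Clec4a2 encodes the inhibitory receptor DCIR, at chr6:123106428-123143999 on the plus strand. Clec4a2 was at 230, 220, 211 and 284 CPM in WT and at 143, 167, 172 and 172 CPM in miR-21-/- samples, again without overlap. Its log2 fold change was -0.52 (SE 0.097, limma adjusted p = 0.00268), with a fold change below the limit of 1.5. Of all stretches of 50 bases in the annotated transcripts of Clec4a2, 6.83% also occur in other genes, mostly its neighbours, and how such reads were assigned is not given in the sources used here.

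Clec4a3 and Clec4a1 are close relatives of DCIR in the same cluster, which are not known to carry an ITIM. Clec4a3 (chr6:122952515-122969875, plus strand) was at 267, 275, 228 and 350 CPM in WT and at 177, 166, 185 and 205 CPM in miR-21-/- samples. The genotypes did not overlap, and the mean fell from 280 ± 51.0 to 183 ± 16.8 CPM (SD, n = 4 each). The log2 fold change was -0.60 (SE 0.12, 95% interval -0.86 to -0.34, limma adjusted p = 0.00371), just past the fold limit. The call was lost under 5 of the 9 alternative settings, with a pseudocount of 10, no filter, median-of-ratios scaling (-0.48), no trend or sample weights. It was also lost in 6 of the 8 fits without 1 sample: the change was -0.48 without WT sample 4, and the adjusted p rose to 0.00815 without WT sample 1, 0.0114 without WT sample 2, and 0.0113, 0.0129 and 0.0108 without miR-21-/- samples 1, 2 and 3.

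Clec4a1 (chr6:122921848-122934619, plus strand) was at 404, 412, 384 and 525 CPM in WT and at 388, 359, 399 and 408 CPM in miR-21-/- samples. The genotypes overlapped, and the log2 fold change was -0.14 (SE 0.095, 95% interval -0.35 to 0.071, limma adjusted p = 0.273). WT sample 4 was the highest of all 8 samples, and without it the change was -0.043 (adjusted p = 0.626).

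Clec10a encodes MGL1, which binds galactose and N-acetylgalactosamine, and is the receptor of the 10 that lies outside chromosome 6 (chr11:70156197-70170834, plus strand). Clec10a was at 21.7, 32.8, 43.1 and 15.0 CPM in WT and at 13.2, 17.9, 15.0 and 11.3 CPM in miR-21-/- samples. WT sample 4 lay within the miR-21-/- range and the other WT samples above it. The log2 fold change was -0.84 (SE 0.27, 95% interval -1.44 to -0.24, limma adjusted p = 0.0356). Without WT sample 4 it was -1.09 with an adjusted p of 0.00423, past the threshold. Leaving out any other sample gave -0.95 to -0.61 with an adjusted p of 0.0401 to 0.0945, above 0.05 without WT sample 2 or 3 or miR-21-/- sample 1, 3 or 4. The adjusted p was also above 0.05 with median-of-ratios scaling (0.0602), with quantile normalization (0.0676) and without a filter on low values (0.118), so that Clec10a is not always among the 8 receptors at or under 0.05.

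Its paralog and neighbour Mgl2 (MGL2) was highest and lowest in the same samples as Clec10a in both genotypes, with 25.4, 22.7, 45.5 and 5.16 CPM in WT and 5.90, 5.99, 5.88 and 5.04 CPM in miR-21-/- samples. For Mgl2 the log2 fold change was -1.62 (limma adjusted p = 0.0253), and -2.20 with an adjusted p of 8.98e-05 without WT sample 4. Leaving out any other sample gave -1.64 to -1.23 with an adjusted p of 0.0491 to 0.0627. Of all stretches of 50 bases in Clec10a transcripts, 8.49% also occur in Mgl2.

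Levels can be compared between receptors once divided by exon length. In WT TAMs the order in CPM per kb of exon was Clec4a1 (277), Clec4n (230), Clec4a3 (211), Clec4a2 (80.7), Clec4d (57.3), Clec7a (44.2), Clec4e (25.4), Clec5a (10.8), Clec10a (9.71) and Clec12a (5.12). The sample ranges overlapped between the neighbours Clec4a1 and Clec4n, Clec4n and Clec4a3, Clec4a2 and Clec4d, Clec5a and Clec10a, and Clec10a and Clec12a, so that the order within those pairs did not exceed the spread. In miR-21-/- TAMs, Clec4d at 149 CPM per kb came after Clec4n and Clec4a1, Clec7a at 128 CPM per kb stood beside Clec4a3 at 138 CPM per kb, and Clec10a at 4.95 CPM per kb came last.

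Of the 10 receptors, 8 lie in 2 clusters of chromosome 6. The receptors of the first cluster had fold changes of both signs, and both receptors of the second had positive ones. The cluster from Clec4a1 to Clec4e spans 368 kb and holds 6 receptors and 7 other genes, of which Clec4a4 and Clec4b1 were expressed highly enough to be tested. Clec4b1, an activating relative of DCIR, averaged 23.6 ± 12.6 and 9.91 ± 4.24 CPM (WT and miR-21-/-, SD, n = 4 each), with overlap and a log2 fold change of -1.12 (limma adjusted p = 0.0271). Clec4a4, an inhibitory DCIR relative, averaged 1.41 ± 0.272 and 0.633 ± 0.140 CPM without overlap, with a log2 fold change of -0.56 (limma adjusted p = 0.00647), and passed the threshold without WT sample 3 (-0.64, adjusted p = 0.00491). Along this cluster the 5 tested genes from Clec4a1 to Clec4a2 thus had negative fold changes and the 3 from Clec4n to Clec4e positive ones.

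The cluster from Clec12a to Clec7a spans 130 kb and holds both of these and 5 other genes, of which 3 were tested. Clec9a, the receptor of cross-presenting dendritic cells for the actin of dead cells, averaged 2.54 ± 0.195 CPM in WT TAMs and 8.18 ± 4.29 CPM in miR-21-/- TAMs, without overlap (log2 fold change 1.26, limma adjusted p = 0.00532). It passed the threshold without miR-21-/- sample 1 (adjusted p = 0.00179) or sample 4 (0.99, adjusted p = 0.00475), and under 4 other settings, with a pseudocount of 0.1, median-of-ratios scaling, quantile normalization or sample weights (adjusted p from 0.00263 to 0.00432). Clec1a, a receptor for fungal melanin, was at means of 6.43 ± 1.15 and 3.76 ± 0.663 CPM, also without overlap (log2 fold change -0.64, limma adjusted p = 0.00576), and passed it without WT sample 1 (-0.73, adjusted p = 0.00444). Clec1b, the podoplanin receptor of platelets, was near 1 CPM in both genotypes, at 1.02 ± 0.544 and 0.902 ± 0.378 CPM. At such low levels the fold change depends on the pseudocount: with one of 10 it was -0.10 for Clec4a4, -0.25 for Clec1a and 0.51 for Clec9a, and with one of 0.1 it was -1.04 for Clec4a4. Clec4b1 was at -0.71 with a pseudocount of 10.

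**Figure D3:**
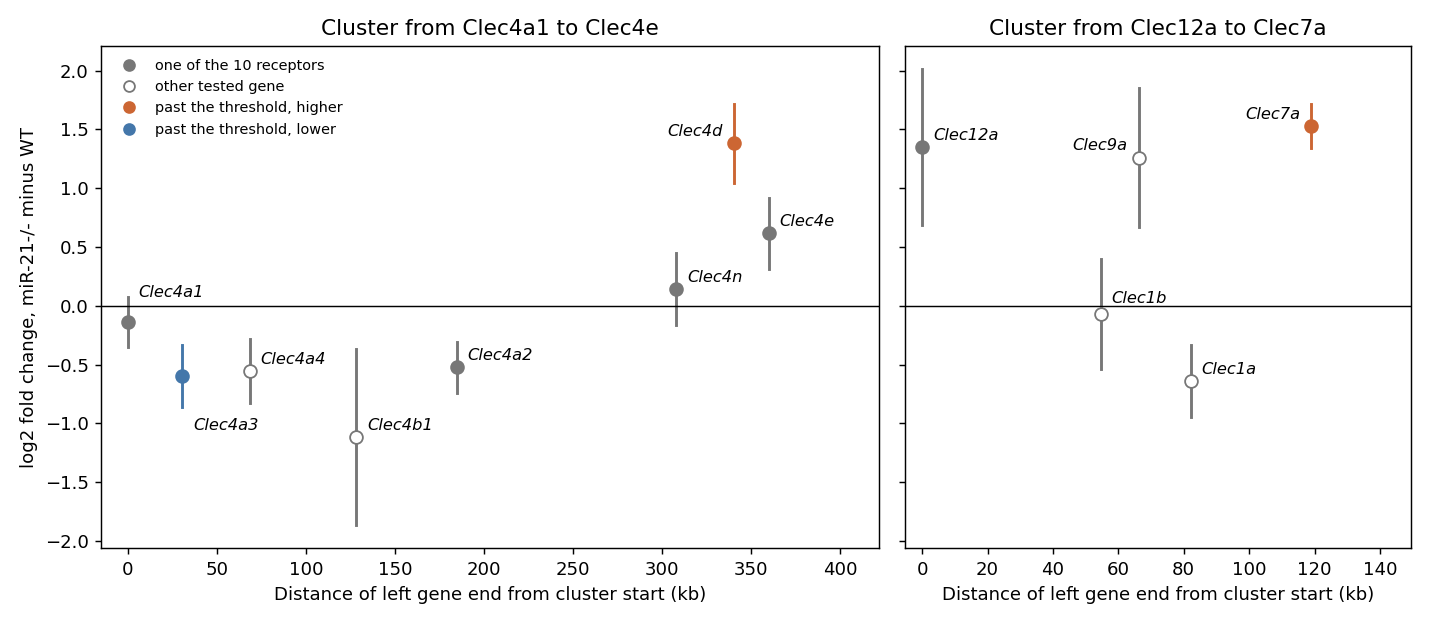
Log2 fold change (miR-21-/- minus WT) with 95% confidence interval of the tested genes in the 2 clusters of chromosome 6, against the distance of each gene's left end from the cluster start in kb. Filled points are receptors of the set and open points are other tested genes, and values run from -1.12 for Clec4b1 to 1.38 for Clec4d in the left cluster and from -0.64 for Clec1a to 1.53 for Clec7a in the right one.

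Since the samples differ by miR-21, the annotated 3′ UTRs of the 10 receptors were searched for its seed matches. The mature miR-21a-5p, here from RefSeq (GRCm38.p6), lies at chr11:86584120-86584141 on the minus strand and pairs with targets by its bases 2 to 8, in capitals. The 8-base match ATAAGCTA lies in the 3′ UTR of Clec5a, and the 7-base match TAAGCTA in that of Clec4a2. They are shown with their surrounding bases because they are the receptors' only matches, with the match in capitals.
miR-21a-5p: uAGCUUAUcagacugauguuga
Clec5a: aaaccttttgATAAGCTAtgtatctcag
Clec4a2: acattactactTAAGCTAattttctctt
The Clec5a match starts at base 2305 of a 3′ UTR of 3072 bases and the Clec4a2 match at base 1353 of 1492. No match of 6 or more bases was found in the other 8 receptors, among them Clec7a and Clec4d. Of 11480 tested genes with a 3′ UTR, 2.31% had an 8-base match, 13% one of 7 or 8 bases and 27.5% one of 6, 7 or 8 bases. Of the 10 receptors, 1, 2 and 2 had such matches. Clec5a, with the longer match, was higher in miR-21-/- TAMs by 0.80 on the log2 scale and Clec4a2 was at -0.52.

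The promoters of the receptors that passed the threshold, and of Clec4e, are shown because neighbouring genes differed in direction. Each runs from 250 bases before to 50 after the RefSeq start (GRCm38.p6), 5′ to 3′ on the gene's strand. Capitals mark letters of 5 motifs searched on both strands: GAGGAA, bound by PU.1, the master factor of myeloid cells, TTGCNNAA of C/EBP, TGANTCA of AP-1, TTCNNNGAA of STAT factors, and GAAA repeated after 2 free bases, as in interferon response elements.
Clec7a: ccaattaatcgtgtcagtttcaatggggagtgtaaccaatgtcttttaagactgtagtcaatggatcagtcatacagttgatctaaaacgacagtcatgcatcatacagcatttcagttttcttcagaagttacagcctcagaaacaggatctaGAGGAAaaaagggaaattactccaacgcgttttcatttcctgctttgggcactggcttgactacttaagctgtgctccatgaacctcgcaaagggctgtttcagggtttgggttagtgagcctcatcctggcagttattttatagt
Clec4d: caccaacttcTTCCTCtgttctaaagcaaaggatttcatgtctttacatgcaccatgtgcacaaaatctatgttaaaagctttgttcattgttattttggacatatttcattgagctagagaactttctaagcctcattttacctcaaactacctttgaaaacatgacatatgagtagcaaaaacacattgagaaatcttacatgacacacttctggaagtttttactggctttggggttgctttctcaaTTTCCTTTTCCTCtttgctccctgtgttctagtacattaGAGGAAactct
Clec4e: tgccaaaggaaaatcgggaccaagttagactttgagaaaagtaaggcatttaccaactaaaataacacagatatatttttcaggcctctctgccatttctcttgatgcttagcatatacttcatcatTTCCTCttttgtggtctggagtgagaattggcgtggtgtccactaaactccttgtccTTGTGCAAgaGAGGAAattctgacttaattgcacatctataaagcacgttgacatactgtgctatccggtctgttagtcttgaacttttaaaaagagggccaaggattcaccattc
Clec4a3: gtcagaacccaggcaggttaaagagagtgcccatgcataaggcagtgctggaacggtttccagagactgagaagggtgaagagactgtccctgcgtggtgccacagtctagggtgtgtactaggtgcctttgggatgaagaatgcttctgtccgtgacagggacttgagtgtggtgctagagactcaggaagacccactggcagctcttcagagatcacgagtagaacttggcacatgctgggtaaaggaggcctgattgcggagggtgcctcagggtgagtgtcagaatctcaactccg
These windows lie at chr6:129472730-129473029, chr6:123261857-123262156, chr6:123289822-123290121 and chr6:122952265-122952564, in the order shown. The PU.1 letters were found once in Clec7a, in 3 places in Clec4d, where 1 of them overlaps an interferon element, and in 2 places in Clec4e, which also holds the C/EBP letters. None of the 5 motifs was found in the Clec4a3 window. For Clec4a2 and Clec12a the RefSeq start lies inside the gene span given above. Over the 8 receptors with a RefSeq promoter, 6 held the PU.1 letters, against 28.3% of 27025 promoters, and Clec4a2 and Clec4a3 were the 2 without them. The C/EBP and AP-1 letters were each in 2 of 8 receptors, against 10.8% and 7.93% of all promoters, and the STAT and interferon letters each in 1 of 8, against 8.47% and 3.49%. These are matches of letters and no binding was measured.

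Other genes of the pathway were read from 3 lists. Of 23 other C-type lectin receptors, 13 were tested, of which 5 had positive and 8 negative fold changes, with a median of -0.070. Of these 13, 9 had an adjusted p at or under 0.05, against 36.0% of all tested genes. Colec12, a scavenger lectin with a collagen stalk, was the gene of that list past the threshold, in the lower direction, in which 4.23% of all tested genes passed. Colec12 averaged 5.34 ± 1.81 and 1.38 ± 0.403 CPM (WT and miR-21-/-, SD, n = 4 each), which is -1.39 as log2 fold change (limma adjusted p = 0.000827). Being low, it depends on the pseudocount, and with a pseudocount of 10 it was at -0.42 and short of the fold limit, and without a filter its adjusted p was 0.00737. The list ran from Mgl2 at -1.62 to Clec9a at 1.26.

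None of the 16 adaptors and signalling genes passed the threshold, with 6 positive and 10 negative fold changes, a median of -0.037 and 4 at an adjusted p at or under 0.05, against 36.0% of all tested genes. Card9, the adaptor below Syk, had the lowest fold change of the list, averaging 46.6 ± 3.19 CPM in WT TAMs and 34.5 ± 2.28 CPM in miR-21-/- TAMs without overlap (log2 fold change -0.42, limma adjusted p = 0.00123, below the fold limit). Malt1, the protease in its complex, had the highest, at 0.45 (limma adjusted p = 0.0148). The shared kinase and chains are named here for their role and with values known. Fcer1g was at 610 ± 35.8 and 698 ± 35.2 CPM (log2 fold change 0.19, limma adjusted p = 0.0429). Syk had a log2 fold change of -0.079 (limma adjusted p = 0.544) and Tyrobp one of -0.058 (limma adjusted p = 0.377).

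Of 18 genes that the Syk and Card9 route is known to induce, among other routes, 14 were tested. Of these, 10 had positive and 4 negative fold changes, with a median of 0.41. An adjusted p at or under 0.05 was reached by 7, against 36.0% of all tested genes. The threshold was passed by 5, all higher in miR-21-/- TAMs, a direction in which 2.89% of all tested genes passed. Nos2, the inducible nitric oxide synthase, rose from 33.3 ± 7.75 to 144 ± 20.7 CPM (log2 fold change 2.10, limma adjusted p = 2.99e-05). Nlrp3, the inflammasome sensor, rose from 112 ± 13.8 to 214 ± 14.4 CPM (log2 fold change 0.93, limma adjusted p = 7.04e-05). The cytokine gene Tnf rose by 0.97 and the chemokine gene Ccl4 by 0.91 on the log2 scale, and without a filter on low values both lost the call (limma adjusted p = 0.00874 and 0.00558). Ptgs2, the inducible cyclooxygenase, was at 0.61 with an adjusted p of 0.00461 and lost the call without WT sample 2, 3 or 4 or miR-21-/- sample 1, 2 or 3, at changes of 0.51 to 0.63, as well as with quantile normalization, without the trend, with sample weights and without a filter. Cxcl1 was the lowest of the list, at -0.59 (limma adjusted p = 0.0828).

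**Figure D4:**
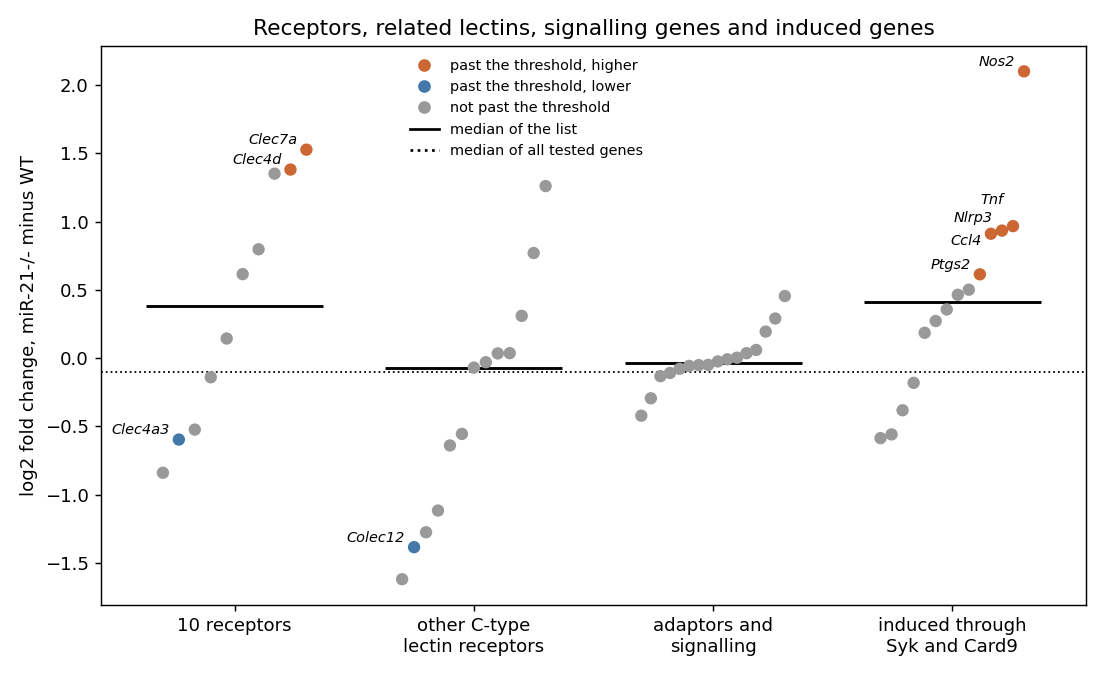
Log2 fold change (miR-21-/- minus WT) of each tested gene in 4 lists, with the list's median as a solid line and the median of all tested genes (-0.10) as a dotted line. The medians are 0.38 for the 10 receptors, -0.070 for other C-type lectin receptors, -0.037 for adaptors and signalling and 0.41 for genes induced through Syk and Card9, and named genes passed the threshold.

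Several of these receptors are also expressed by other myeloid cells, so the levels of their markers are given beside them. The 10 neutrophil markers summed to 823 to 1238 CPM in WT and 608 to 789 CPM in miR-21-/- samples, without overlap. Of the 8 tested, 7 were lower, with Mmp8 past the threshold. Clec4a1, Clec4a2, Clec4a3 and Clec10a had fold changes of the same sign as most of these markers, and the other 6 receptors of the opposite sign. The intervals of Clec4a1 and Clec4n include 0, and the median of all tested genes was itself negative, at -0.10. A sort for F4/80 and MHCII is meant to leave neutrophils out. The 8 monocyte markers, none past the threshold, summed to 1024 to 1874 CPM in WT and 908 to 1641 CPM in miR-21-/- samples. The 12 dendritic cell markers summed to 717 to 929 CPM and 648 to 1118 CPM. Of the 11 tested, 3 had positive and 8 negative fold changes, with Dpp4 lower past the threshold. Lymphocyte markers summed to 15.4 to 37.6 CPM and 7.60 to 33.8 CPM. Of the lymphocyte markers, Cd4 was lower past the threshold (log2 fold change -2.35, limma adjusted p = 0.00206), and Cd8a was at 1.28 without overlap (limma adjusted p = 0.00804). Xcr1, which marks the dendritic cells that carry Clec9a, averaged 3.54 ± 2.40 CPM in WT TAMs and 9.61 ± 7.95 CPM in miR-21-/- TAMs (limma adjusted p = 0.117). From the same list, Batf3 was at -0.19 (limma adjusted p = 0.568) and Wdfy4 at -0.50 without overlap (limma adjusted p = 0.00104). Tumor and stromal markers summed to 195 to 355 CPM and 212 to 296 CPM, most of it from Pecam1 (means 192 and 218 CPM). Of the 7 tested, 6 had negative fold changes, and 2 were lower past the threshold. These were Col1a1, a collagen gene of fibroblasts (log2 fold change -2.29, limma adjusted p = 0.00464), and Pdgfrb, a receptor of pericytes and fibroblasts (-1.22, limma adjusted p = 0.000242). The neutrophil markers Camp and Mpo were below the filter on low values. The part of such cells in the values of Clec4a2, Clec4a3, Clec4d, Clec4e, Clec5a, Clec7a, Clec9a, Clec12a, Clec10a and Mgl2 was not tested.

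The genes whose pattern over the 8 samples was most like that of Clec7a, out of 8647 genes with a mean of at least 10 CPM, were Gdap10, Itpripl2 and Tbc1d9, with Pearson correlations of 0.995, 0.994 and 0.992. For Clec4a3 they were Nmt1, Atf6 and Parp2, at 0.985, 0.979 and 0.977. The 8 samples form 2 genotypes, so that these values share the difference between genotypes and are given as a description.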

How the data were processed

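TAM mRNA libraries (Kapa mRNA Hyper prep) of 4 WT and 4 miR-21-/- samples gave 1 table. The authors deposited CPM values, each raised by 0.0001, which was subtracted again. The submitters' processing notes name STAR, Partek 7.0 and mm10, and counting rule, strand and handling of shared reads are not given in the sources used here. Between 72.2% and 73.4% of the values up to 20 reads fell within 0.02 of a whole read, so no count test was run. Depth was read from these steps.

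The main model was limma 3.58.1 under R 4.3.3 on log2(CPM + 1), with lmFit and a trended two-sided eBayes, over the 13850 genes whose mean reached 1 in 1000000 of the column totals. The fit was tested on simulated data. Members and lists were chosen with earlier results of these data known. The genes named are all members, genes of the lists past the threshold or at a list's extremes, tested genes between neighbouring members, and the 3 genes most like Clec7a and Clec4a3. Other named genes are marked or are cell markers. Coordinates are of GRCm38 with the GENCODE vM21 annotation. Python 3.11.15, pandas 2.3.3 and matplotlib 3.10.9 were used. Alternatives were a pseudocount of 0.1 or 10, other filters, 2 other scalings, no trend, sample weights, the replicate number as a block, another threshold and leaving out each sample. Precision is limited by 4 samples per genotype.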

Additional observations from a re-analysis of the deposited data

Results flagged for a closer look

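In 2 of the 20 sets of 4 samples checked (10 receptors in each genotype), 1 sample lay far from the other 3 by Dixon's criterion, and chance alone gives about 1 in 20. Both concern WT sample 4. Clec4n was at 251 CPM there, against 340 to 358 CPM in the other WT samples. Clec7a was at 99.2 CPM there, against 121 to 124 CPM in the other WT samples. The same sample was the highest WT sample for Clec4a1, Clec4a2, Clec4a3 and Clec12a and the lowest also for Clec4d, Clec5a and Clec10a. The reason was not tested.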

How the results depend on the processing

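In these fits Clec7a and Clec4d always passed the threshold, while Clec4a3 lost the call in several. The number of receptors past the threshold and lower, 1 as reported, was 0 with a pseudocount of 10, without a filter, with median-of-ratios scaling, without the trend and with sample weights, and 3 at an adjusted p of 0.05 without a fold limit. The number higher, 2 as reported, was 4 with the replicate number as a block (Clec4e and Clec5a added), 3 with median-of-ratios scaling (Clec4e) and 3 with sample weights (Clec12a), and 5 at an adjusted p of 0.05. Clec9a also passed with the block (adjusted p = 0.00427), as did Clec4b1 (0.00119). Leaving out 1 sample gave 0 to 1 lower, 2 to 3 higher and 684 to 1002 genes in all. Of all genes, 986 passed as reported, 452 with a pseudocount of 10, 515 without a filter, 4982 at an adjusted p of 0.05 and 922 with the block. Replicate numbers are those of the sample descriptions, and the titles number the miR-21-/- samples differently. Over all tested genes, the deviations of same-numbered samples from their group means correlated at 0.083, -0.11, -0.14 and 0.22. Those of differently numbered samples correlated at -0.20 to 0.14. Such values cannot decide whether the numbers pair the samples, which was not tested. The share of calls that were higher was 40.6% as reported, 59.8% with median-of-ratios scaling, which moved the median of all genes by 0.10, and 59.3% with quantile normalization. Without a filter Tnf, Ccl4, Colec12 and Ptgs2 lost the call. Clec1b changed sign, to 0.055 with quantile normalization, and lay between -0.22 and 0.073 when 1 sample was left out, above 0 without WT sample 2 or 3 or miR-21-/- sample 2. The causes were not tested.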
